A study of Mus musculus with 8 samples.

Results

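Transcripts of the machinery for endoplasmic reticulum (ER)-associated degradation (ERAD) were examined in pituitary neuro-intermediate lobes of mice, the tissue that holds the melanotropes, cells that make the hormone precursor POMC. The 10 members, Edem1, Edem2, Edem3, Os9, Sel1l, Syvn1, Herpud1, Derl1, Derl2 and Derl3, were chosen by gene symbol among the 48526 genes counted. All 10 passed the filter on low counts that left 15580 genes for testing. RNA-seq was done on 8 libraries in 4 groups of 2: WT, ACreb3l2, AXBP1 and the double transgenic ACreb3l2/AXBP1. Each library was made from a pool of 5 lobes, which the labels call melanotropes of strain C57B6, and the study's methods state that the mice were males 3 months old. The labels name no treatment for any group. ACreb3l2 and AXBP1 are acidic leucine-zipper proteins built to pair with the transcription factors Creb3l2 and XBP1 and hold them off DNA. They were expressed from a rat POMC promoter, so that they act in POMC cells while the pools also hold other cells of the lobe. The study kept 2 lines per transgene, described them as alike and showed a single line, and the labels name no line for a library. Since each library is a pool, the p-values below rest on the spread between pools and not on that between individual mice. In the main test this spread was estimated over all 8 libraries together, with 2 pools in each of the 4 groups.

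ERAD removes proteins that fail to fold in the ER. Mannosidase-like EDEM proteins and the lectin OS9 mark misfolded glycoproteins, the SEL1L and HRD1 (Syvn1) complex in the ER membrane passes them across with the help of derlins and HERP (Herpud1), and they are ubiquitinated and degraded by the proteasome in the cytosol. Several of these genes are textbook targets of the unfolded protein response, in which XBP1 and ATF6 bind ER stress elements in promoters, and secretory cells that make much protein depend on the pathway.

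Promoter sequence was examined first because the transgenes were aimed at DNA-binding factors. RefSeq windows (GRCm38.p6, 250 bases before to 50 bases after an annotated start) were found for 9 of the 10 members, in 10 windows. Both strands were searched for the ER stress element (ERSE, CCAAT and CCACG separated by 9 bases), ERSE-II (ATTGG and CCACG separated by 1 base), the unfolded protein response element cores TGACGTGG and TGACGTGA, the cAMP response element TGACGTCA and the short core ACGT. The ERSE was held by the windows of Syvn1 and Derl3, and by 0.119% of all 32851 windows. ERSE-II was held by the window of Herpud1, and by 0.0365% of all windows. These 3 stretches are shown because they carry elements of the unfolded protein response, with the fixed letters of each element in capitals.
Syvn1: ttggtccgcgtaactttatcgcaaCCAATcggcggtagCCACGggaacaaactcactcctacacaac
Derl3: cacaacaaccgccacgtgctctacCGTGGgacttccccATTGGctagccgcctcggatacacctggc
Herpud1: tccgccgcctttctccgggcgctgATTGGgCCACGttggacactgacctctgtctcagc

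The Syvn1 stretch lies at chr19:6046508-6046574, that of Derl3 at chr10:75893218-75893284 and that of Herpud1 at chr8:94386353-94386411, all upstream of genes on the plus strand and printed on that strand. The element spans positions -44 to -26 from the start of Syvn1, -156 to -138 from that of Derl3 and -52 to -42 from that of Herpud1. In Derl3 it is on the minus strand, so that the capitals read CGTGG and ATTGG in the printed line. The short core ACGT was in the windows of 5 members, Edem2, Edem3, Herpud1, Derl3 and Os9, beside 30.9% of all windows, and in Herpud1 it overlaps the end of ERSE-II. Neither TGACGTGG (0.676% of all windows), TGACGTGA (0.441%) nor TGACGTCA (1.79%) occurred in a member's window, which says only that these letters are not in these bases. Of 59 other genes of the pathway 48 had a window, and Hspa5 was the only 1 with an ERSE while 0 had ERSE-II.

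Library totals ran from 28256086 to 37988912 counts. At this depth Syvn1 had from 878 to 1595 raw counts in a library and Derl3 from 80 to 213, the lowest counts among the members. All 6 melanotrope markers (Pomc, Pcsk2, Tbx19, Pax7, Oacyl and Drd2) were detected in every library. Their summed level, most of it Pomc, was 98954 and 143380 FPKM in WT, against 113799 and 96137 with ACreb3l2, 79212 and 94763 with AXBP1 and 73393 and 61047 with both transgenes. On this scale it was lower in both libraries of AXBP1 and of ACreb3l2/AXBP1 than in either of WT. The median of all tested genes was also -0.13 in AXBP1 against WT on log2(FPKM + 1). As a share of raw counts, Pomc was 10.5% and 14.6% in WT, 11.8% and 10.6% with ACreb3l2, 9.77% and 11.2% with AXBP1 and 8.76% and 6.91% with both transgenes. On counts AXBP1 thus overlapped WT, and only ACreb3l2/AXBP1 was below both WT libraries, as many members were. The part of melanotropes in the results below was not tested. In these libraries alone, fewer melanotropes and less RNA per melanotrope cannot be told apart. The study measured less total RNA in lobes of these transgenic mice, the more so with both transgenes. It also found a higher density of melanotrope nuclei, which it read as smaller cells. Counts and FPKM are relative to each library's total, so the changes below are not amounts per lobe or per cell. Markers of the anterior lobe summed to 5665 to 7994 FPKM in WT and 2537 to 2734 in AXBP1, the lowest of the 4 groups. Endothelial markers summed to 39.4 to 50.2 FPKM in WT and to 54.2 to 72.0 with both transgenes, and those of macrophages and microglia to 167 to 184 FPKM in WT and 153 to 156 in AXBP1. These AXBP1 sums are not corrected for the lower median of all genes on this scale given above. Markers of pituicytes and astrocytes, of fibroblasts and pericytes and of red cells overlapped with WT in each group, and the part of any of these cells in the results was not tested. Creb3l2 itself had 28642 and 28156 normalised counts in WT, against 27174 and 26738 with ACreb3l2, 18810 and 22801 with AXBP1 and 21176 and 14024 with both transgenes. Xbp1 had 11860 and 13417 in WT, against 9142 and 9192 with ACreb3l2, 12431 and 13831 with AXBP1 and 17615 and 12837 with both transgenes. By the study's methods the transgenes carry coding sequence of these genes from the leucine zipper on, so their reads can add to these counts. Lines were kept for a transgene mRNA well above the endogenous one by RT-qPCR, which for AXBP1 was the spliced form of Xbp1. Yet both ACreb3l2 libraries were below both WT libraries for Creb3l2, and for Xbp1 the ranges of AXBP1 and WT overlapped. In this the counts go against the labels, although transgene and endogenous reads cannot be told apart in a gene count. The Xbp1 count also takes in the unspliced form, so it is not the measure by which lines were kept. ACreb3l2, AXBP1 and ACreb3l2/AXBP1 therefore stand for the libraries so labelled throughout.

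Across the members, levels in WT spanned 34.9-fold on the FPKM scale, which divides fragments by gene length. Herpud1 was the highest at 129 ± 4.61 FPKM (SD, n = 2), above 97.1% of the tested genes. Os9 followed at 75.8 ± 7.23 FPKM, Derl1 at 53.0 ± 0.713, Sel1l at 42.2 ± 1.68 and Edem3 at 36.6 ± 0.0800. Lower levels were those of Derl2 at 22.3 ± 0.365 FPKM, Edem2 at 19.0 ± 1.71, Syvn1 at 12.5 ± 2.82, Edem1 at 7.72 ± 0.401 and Derl3 at 3.71 ± 1.21. No neighbours in this order had overlapping WT libraries, although 2 libraries give only a rough range. The ubiquitin ligase Syvn1 was thus well under its partner Sel1l, and 8 of the 10 members were above the median tested gene, which had 8.09 FPKM.

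**Figure D1:**
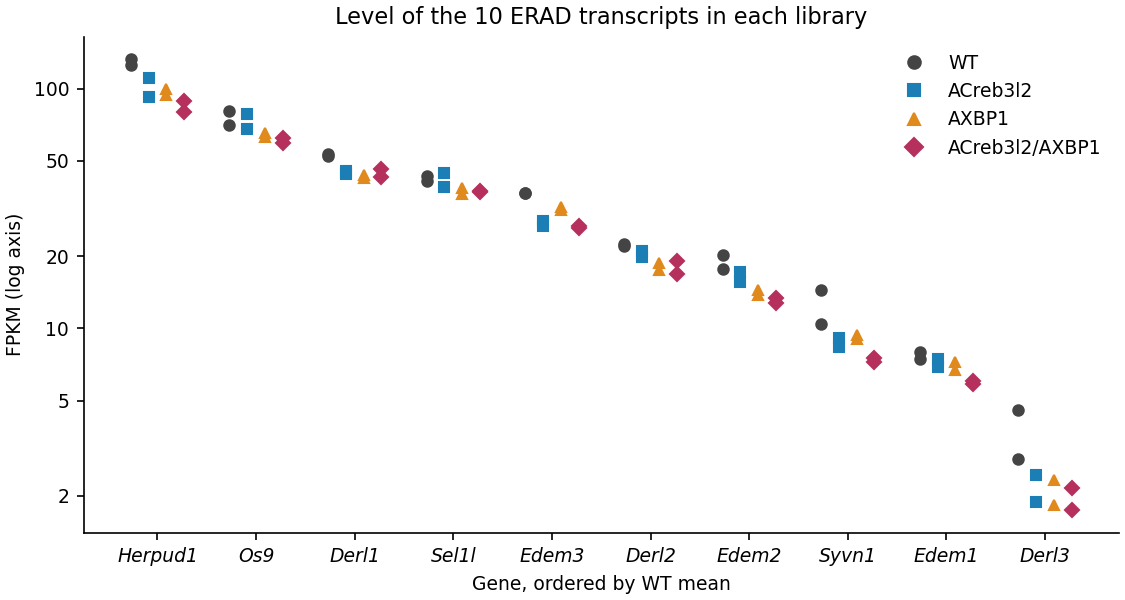
Level of each of the 10 transcripts in FPKM on a log axis, ordered by the WT mean, with 1 point per library and 4 groups of 2 libraries. Herpud1 is highest (WT 126 and 133 FPKM) and Derl3 lowest (WT 2.85 and 4.56 FPKM), and for all genes but Os9 and Sel1l both WT points lie above the transgenic ones.

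Each group labelled as transgenic was compared with WT to ask how ERAD transcripts depended on either factor and on the pair. In ACreb3l2/AXBP1 lobes 5 of 10 members fell (Edem1, Edem2, Edem3, Syvn1 and Herpud1) and 0 rose, at an edgeR adjusted p under 0.05, beside 10.1% of all tested genes called in this comparison and 6.99% called lower. In ACreb3l2 lobes 1 of 10 fell (Edem3), beside 3.04% of all genes called and 2.5% called lower. In AXBP1 lobes 0 members were called, beside 0% of all genes, and 3 (Edem2, Derl3 and Herpud1) had an unadjusted edgeR p under 0.05 in the lower direction, beside 5.68% of all genes. DESeq2 (0.469% of all genes called) and limma (0.0578%) also called 0 members in AXBP1, while edgeR without the filter on low counts called 1, Derl3, beside 2.13% of all 29547 genes then tested. The median log2 change of the members was -0.36 with both transgenes, -0.26 with ACreb3l2 alone and -0.15 with AXBP1 alone, where the median over all tested genes was 0.01, 0.01 and 0.00. The median in AXBP1 was -0.085 without WT replicate 2 and -0.29 on log2(FPKM + 1), where that of all genes was -0.13. With library size only it was -0.090 in AXBP1 and -0.19 with both transgenes, where that of all genes was 0.17 in the latter. Both transgenic libraries lay below both WT libraries for 9 members in ACreb3l2/AXBP1 (28.7% of all genes), 7 in ACreb3l2 (23.2%) and 7 in AXBP1 (23.8%). The 3 comparisons share the WT libraries, so they are not separate evidence of a direction.

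The count in ACreb3l2/AXBP1 rests on few libraries. Without WT replicate 2 it was 1 member (Herpud1) and 355 of all genes, and without ACreb3l2/AXBP1 replicate 2 it was 1 member (Herpud1) and 218 of all genes, against 1566 with all libraries.

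**Figure D2:**
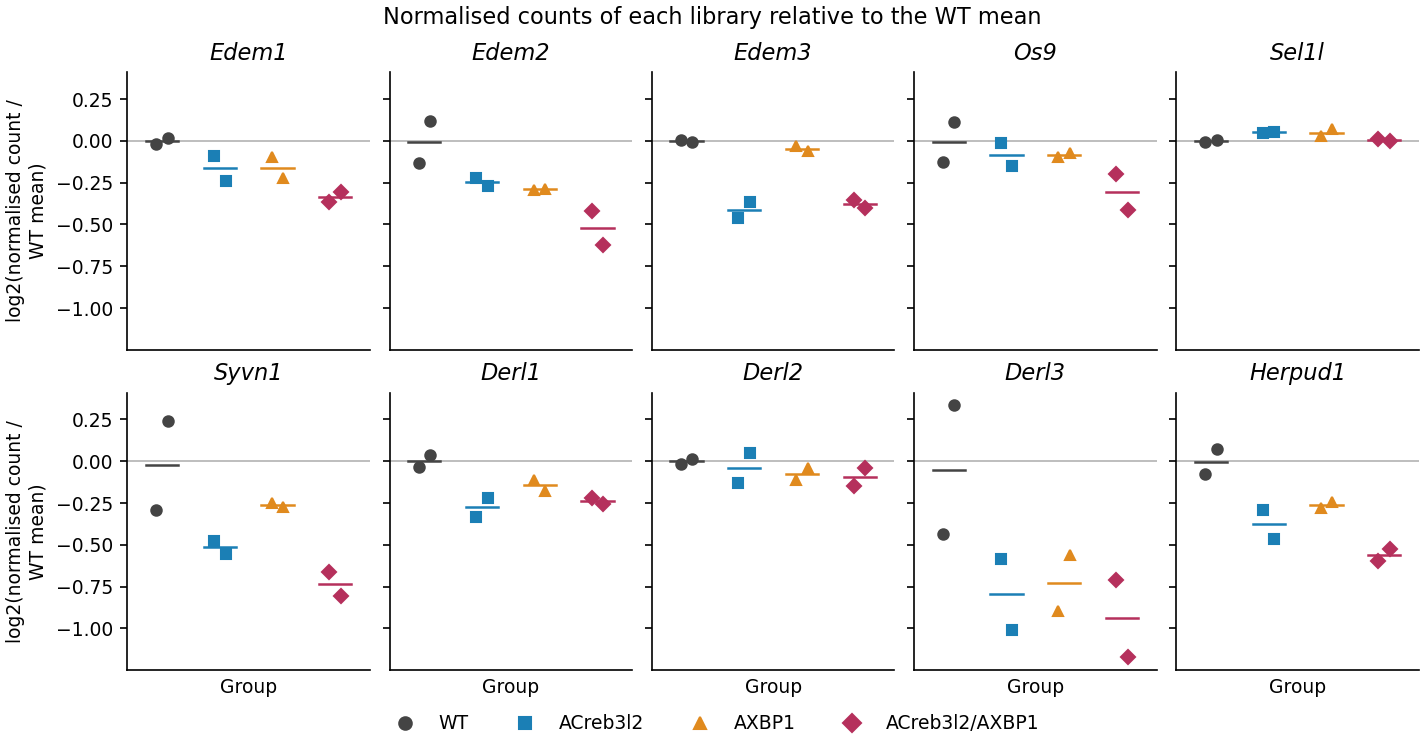
Normalised count of each library relative to the WT mean on a log2 scale, 1 panel per gene, with 1 point per library and a bar at the mean of the 2 libraries. Syvn1 and Derl3 show the widest gap between WT libraries (1203 and 1737, and 136 and 232 normalised counts), and Sel1l stays near 0 in all groups.

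The 3 EDEM genes come first, since their products trim mannose from misfolded glycoproteins and route them to degradation. Edem1 (ENSMUSG00000030104, GRCm38 chr6:108828641-108859356, plus strand) had 1503 and 1542 normalised counts in WT, against 1427 and 1291 with ACreb3l2, 1421 and 1304 with AXBP1 and 1182 and 1231 with both transgenes. All 6 transgenic libraries were below both WT libraries, those of ACreb3l2/AXBP1 lowest and apart from the single transgenic groups, whose ranges overlapped. The change in ACreb3l2/AXBP1 was -0.34 on the log2 scale (SE 0.0914, edgeR adjusted p = 0.0462), close to the threshold. This call was kept in only 4 of 18 alternatives (adjusted p from 0.0343 to 0.241), and the change was -0.17 with library size only. In the single groups Edem1 had log2 changes of -0.16 and -0.16 (edgeR adjusted p = 0.409 in ACreb3l2 and 0.561 in AXBP1), which were -0.088 without ACreb3l2 replicate 2 and -0.098 without AXBP1 replicate 2.

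Edem2 (ENSMUSG00000038312, chr2:155701677-155729475, minus strand) had 1516 and 1806 normalised counts in WT, against 1427 and 1380 with ACreb3l2, 1353 and 1363 with AXBP1 and 1243 and 1077 with both transgenes. The groups again did not overlap with WT, and ACreb3l2/AXBP1 was lowest. Its counts fell by 30.1% in ACreb3l2/AXBP1 (log2 change -0.52, SE 0.108, edgeR adjusted p = 0.0189), a call kept in 14 of 18 alternatives (adjusted p from 0.000171 to 0.161) but not without WT replicate 2, where the log2 change was -0.39. Alone, ACreb3l2 gave -0.24 (SE 0.108, edgeR adjusted p = 0.294) and AXBP1 gave -0.29 (SE 0.108, edgeR adjusted p = 0.487), or -0.11 and -0.16 without WT replicate 2.

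Edem3 (ENSMUSG00000043019, chr1:151755371-151822051, plus strand), the most abundant of the 3 on the FPKM scale, had 7245 and 7205 normalised counts in WT and 7068 and 6931 in AXBP1, but 5258 and 5608 in ACreb3l2 and 5648 and 5473 in ACreb3l2/AXBP1. The 4 libraries with the ACreb3l2 transgene thus lay together, well below the 4 libraries without it. Edem3 fell by 24.8% in ACreb3l2 (log2 change -0.41, SE 0.0773, edgeR adjusted p = 0.0205) and, with both transgenes, fell by 23.0% (log2 change -0.38, SE 0.0772, edgeR adjusted p = 0.0174). In AXBP1 its log2 change was -0.05 (95% confidence interval -0.22 to 0.13, edgeR adjusted p = 0.842). On the FPKM scale AXBP1 lay between, at 31.1 and 31.9 FPKM against 36.6 and 36.7 in WT and 27.9 and 26.8 with ACreb3l2. The change in AXBP1 was -0.22 on log2(FPKM + 0.1), which limma did not call. On that scale the median of all tested genes in AXBP1 was -0.16. With library size only the change in ACreb3l2/AXBP1 was -0.22 and was not called. The call in ACreb3l2 was kept in 8 of 17 alternatives (adjusted p from 0.000719 to 0.137), with log2 changes between -0.45 and -0.34 in all of them. It was lost on leaving out WT replicate 2, either library of ACreb3l2 or either library of AXBP1. The test of ACreb3l2 directly with AXBP1 put Edem3 at -0.37 on the log2 scale (SE 0.0773, unadjusted p = 0.000801, edgeR adjusted p = 0.0796), which did not pass. On log2(FPKM + 1) it was at -0.20, where the median of all genes was 0.15.

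Os9 (ENSMUSG00000040462, chr10:127095650-127121131, minus strand) encodes a lectin that hands trimmed glycoproteins to SEL1L. Its normalised counts were 10769 and 12714 in WT, against 11625 and 10589 with ACreb3l2, 10963 and 11159 with AXBP1 and 10220 and 8832 with both transgenes. Only ACreb3l2/AXBP1 was below both WT libraries. Its log2 change there was -0.30 (SE 0.109, edgeR adjusted p = 0.101), or -0.18 without WT replicate 2, and those of the single groups were -0.08 and -0.09 (edgeR adjusted p = 0.763 and 0.786), both above 0 without WT replicate 2 (0.04 and 0.04). With library size only Os9 was at -0.14 with both transgenes. On log2(FPKM + 0.1) it was at -0.24 with AXBP1, where the median of all genes was -0.16.

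In the core of the ligase complex, Sel1l (ENSMUSG00000020964, chr12:91806043-91849157, minus strand), the scaffold that stabilises the HRD1 ligase, had 7192 and 7245 normalised counts in WT, against 7456 and 7501 with ACreb3l2, 7370 and 7573 with AXBP1 and 7262 and 7223 with both transgenes. All 8 libraries lay within a narrow range. Sel1l changed on the log2 scale by 0.05 with ACreb3l2, 0.05 with AXBP1 and 0.00 with both (edgeR adjusted p = 0.778, 0.823 and 0.974), with a 95% confidence interval of -0.16 to 0.17 in the last. On log2(FPKM + 1) these changes were -0.02, -0.17 and -0.18, none of them called, where the medians of all genes were 0.02, -0.13 and -0.02.

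Syvn1 (ENSMUSG00000024807, chr19:6046576-6053712, plus strand) encodes HRD1, the ubiquitin ligase itself, and carries the ERSE shown above. It had 1203 and 1737 normalised counts in WT, against 1057 and 1002 with ACreb3l2, 1235 and 1215 with AXBP1 and 927 and 839 with both transgenes. WT replicate 2 stood above every other library, and WT replicate 1 lay just under the AXBP1 pair. Syvn1 fell by 39.9% in ACreb3l2/AXBP1 (log2 change -0.73, SE 0.152, edgeR adjusted p = 0.0193), kept in 14 of 18 alternatives (adjusted p from 4.64e-08 to 0.173). Without WT replicate 2 that change was -0.45 and was not called. In ACreb3l2 its log2 change was -0.51 (SE 0.151, edgeR adjusted p = 0.119), or -0.23 without WT replicate 2. In AXBP1 it was -0.26 (SE 0.150, edgeR adjusted p = 0.563), or 0.03 without that library. The exons of Syvn1 share 91 bases with Mrpl49 on the opposite strand, and whether counting used strand is not stated, so a part of its reads may belong to that gene.

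Herpud1 (ENSMUSG00000031770, chr8:94386438-94395377, plus strand), whose product HERP recruits substrates and derlins to the ligase, carries the ERSE-II shown above. Its normalised counts were 7557 and 8363 in WT, against 6513 and 5767 with ACreb3l2, 6570 and 6714 with AXBP1 and 5267 and 5525 with both transgenes. Every transgenic library was below both WT libraries, and both ACreb3l2/AXBP1 libraries were below the other 6. Herpud1 fell by 32.2% in ACreb3l2/AXBP1 (log2 change -0.56, SE 0.0913, edgeR adjusted p = 0.00724), the lowest adjusted p among the members. This call was kept in 17 of 18 alternatives (adjusted p from 1.95e-06 to 0.0625). Herpud1 was at -0.37 on the log2 scale with ACreb3l2 (SE 0.0911, edgeR adjusted p = 0.0610) and at -0.26 with AXBP1 (SE 0.0911, edgeR adjusted p = 0.484). The latter was -0.42 on log2(FPKM + 0.1), where the median of all genes was -0.16.

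Derlins are multispanning proteins that thin the ER membrane where substrates cross it. Derl1 (ENSMUSG00000022365, chr15:57869502-57892448, minus strand) had 6270 and 6591 normalised counts in WT, against 5100 and 5525 with ACreb3l2, 5959 and 5678 with AXBP1 and 5522 and 5393 with both transgenes. All transgenic libraries were below WT, with ACreb3l2 and ACreb3l2/AXBP1 overlapping. Its log2 changes were -0.28, -0.14 and -0.24 with ACreb3l2, AXBP1 and both (edgeR adjusted p = 0.114, 0.555 and 0.0877), none of them called. With AXBP1 the change was -0.082 with library size only and -0.30 on log2(FPKM + 0.1), where the medians of all genes were 0.06 and -0.16. With both it was -0.075 with library size only, where that median was 0.17.

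Derl2 (ENSMUSG00000018442, chr11:71007164-71019841, minus strand) had 2019 and 2058 normalised counts in WT, against 1865 and 2109 with ACreb3l2, 1888 and 1986 with AXBP1 and 1841 and 1986 with both transgenes. Its ranges lay close together, and that of ACreb3l2 enclosed WT. The log2 changes were -0.04, -0.07 and -0.09 in the same order (edgeR adjusted p = 0.874, 0.771 and 0.512). On the FPKM scale both WT libraries (22.6 and 22.1 FPKM) were above all 6 transgenic ones (16.9 to 21.0). The changes on log2(FPKM + 0.1) were -0.13, -0.30 and -0.31, none of them called, where the medians of all genes were 0.03, -0.16 and -0.03. Leaving out 1 library put the changes on counts between -0.12 and 0.05 with ACreb3l2, -0.11 and -0.038 with AXBP1 and -0.16 and -0.038 with both, and library size only put that with both at 0.07. The exons of Derl2 share 231 bases with Mis12 on the opposite strand, with the same doubt on strand.

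Derl3 (ENSMUSG00000009092, chr10:75893413-75895941, plus strand), the derlin best known from secretory cells, had 136 and 232 normalised counts in WT, against 123 and 91 with ACreb3l2, 99 and 125 with AXBP1 and 113 and 82 with both transgenes. All 6 transgenic libraries were below both WT libraries, but WT replicate 1 was nearer to them than to WT replicate 2. Derl3 had the lowest fitted values of the members, with log2 changes of -0.77, -0.72 and -0.92 with ACreb3l2, AXBP1 and both, and the largest errors (SE 0.288, 0.289 and 0.290, edgeR adjusted p = 0.212, 0.493 and 0.0714). Without WT replicate 2 these changes were -0.34, -0.29 and -0.49. Plasma cells, which express Derl3, were checked by 6 markers, which summed to 24.9 and 37.4 FPKM in WT, against 37.6 and 41.3 with ACreb3l2, 18.8 and 21.2 with AXBP1 and 33.9 and 28 with both transgenes. Over the 8 libraries Igkc ran from 7.11 to 24.5 FPKM, Sdc1 from 6.54 to 11.3, Ighm from 3.50 to 5.06 and Jchain from 1.0 to 4.4, while Mzb1 was at most 0.160 FPKM and Tnfrsf17 at most 0.201 FPKM. The part of such cells in the level of Derl3 was not tested.

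**Figure D3:**
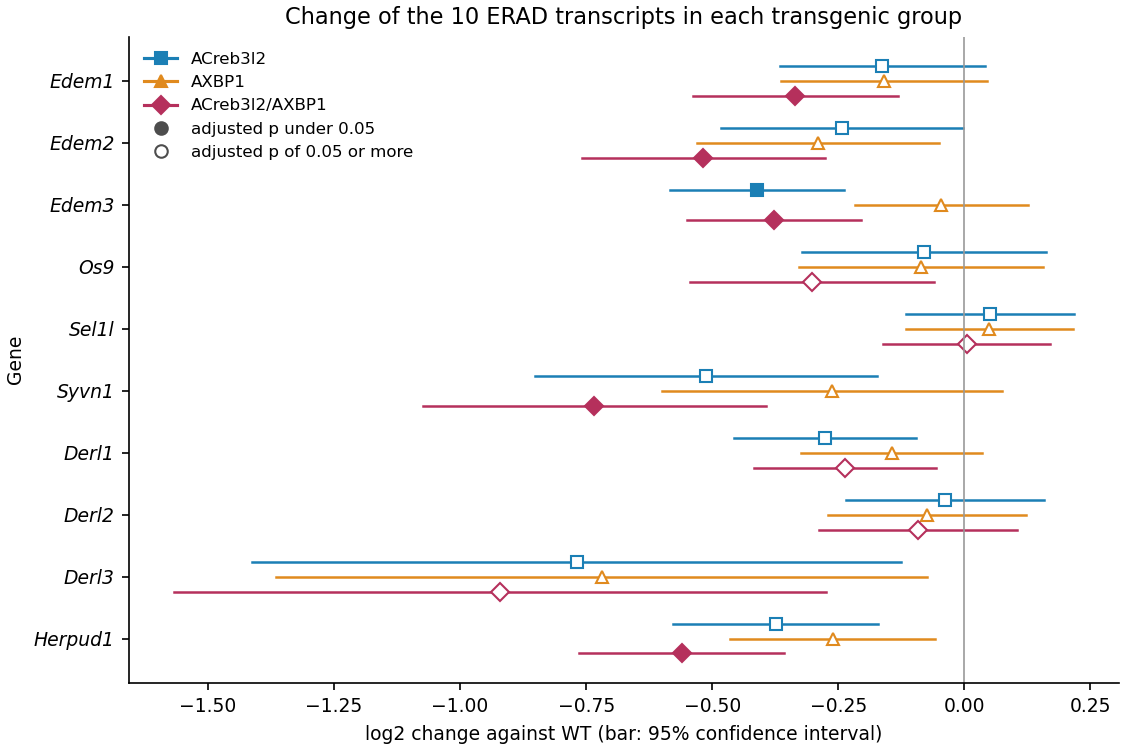
Change of each transcript against WT on a log2 scale in the 3 transgenic groups, with 95% confidence intervals, and filled symbols at an adjusted p under 0.05. Filled symbols are 5 in ACreb3l2/AXBP1, 1 in ACreb3l2 (Edem3) and 0 in AXBP1, and Derl3 has the widest interval (-1.57 to -0.27 in ACreb3l2/AXBP1).

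Whether the transgenic groups differed from one another was tested directly. Between ACreb3l2 and AXBP1 0 of 10 members were called (0.719% of all genes), with Edem3 as above and the other 9 at an unadjusted p of 0.05 or more, where 9.49% of all genes were under it. Between ACreb3l2/AXBP1 and AXBP1 0 members were called (0.623% of all genes), and 3 had an unadjusted edgeR p under 0.05, as had 11.1% of all genes. These were Edem3 (log2 change -0.33, SE 0.0772, edgeR adjusted p = 0.111), Syvn1 (-0.47, SE 0.152, edgeR adjusted p = 0.278) and Herpud1 (-0.30, SE 0.0912, edgeR adjusted p = 0.242). On log2(FPKM + 1) Syvn1 was at -0.28 and Herpud1 at -0.19, where the median of all genes was 0.098. Between ACreb3l2/AXBP1 and ACreb3l2 0 members and 0% of all genes were called, and 7.14% of all genes, Edem2 alone among the members, had an unadjusted p under 0.05. For Edem2 the difference was -0.28 on the log2 scale (SE 0.108, edgeR adjusted p = 0.688), or -0.18 without ACreb3l2/AXBP1 replicate 2. DESeq2 called Edem3 in each of the first 2 of these comparisons (1.66% and 1.82% of all genes) and 0 members in the third (0.231%). limma called 0 members in all 3 (0.193%, 0.205% and 0% of all genes). Over all alternatives Syvn1 was called in 2 of 17 between ACreb3l2/AXBP1 and AXBP1. Edem3 was called in 1 of 17 there and in 2 of 17 between ACreb3l2 and AXBP1. In the main test the member counts called in one group and not in another are therefore not shown to differ.

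The interaction is the change in ACreb3l2/AXBP1 beyond the sum of those in the single groups. edgeR called it for 0 members and 0% of all genes, 0 members and 2.48% of all genes had an unadjusted p under 0.05, and DESeq2 (0.0257% of all genes) and limma (0%) called 0 members. Its members ranged from -0.14 (Os9) to 0.57 (Derl3, 95% confidence interval -0.36 to 1.49) on the log2 scale, with a median of 0.03. For Edem1, Edem2, Syvn1 and Herpud1 it was -0.01 (95% confidence interval -0.30 to 0.27), 0.01 (-0.33 to 0.36), 0.04 (-0.44 to 0.52) and 0.07 (-0.21 to 0.36). Departures that lie within these intervals were not detectable with 2 libraries a group.

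Each transgene was also seen in 2 comparisons that share no library, once against WT and once on top of the other transgene. For ACreb3l2, 9 of 10 members had a log2 change below 0 both against WT and in ACreb3l2/AXBP1 against AXBP1, with Sel1l as the exception, while 34.4% of all tested genes were below 0 in both. The members farthest below 0 in the second comparison were Syvn1, Edem3 and Herpud1. For AXBP1, 7 of 10 members were below 0 both against WT and in ACreb3l2/AXBP1 against ACreb3l2, and 33.5% of all tested genes were. The exceptions were Sel1l, Derl1 and Edem3. All 4 comparisons come from 1 fit with a common normalisation, and of their values only that of Edem3 in ACreb3l2 against WT passed the test.

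**Figure D4:**
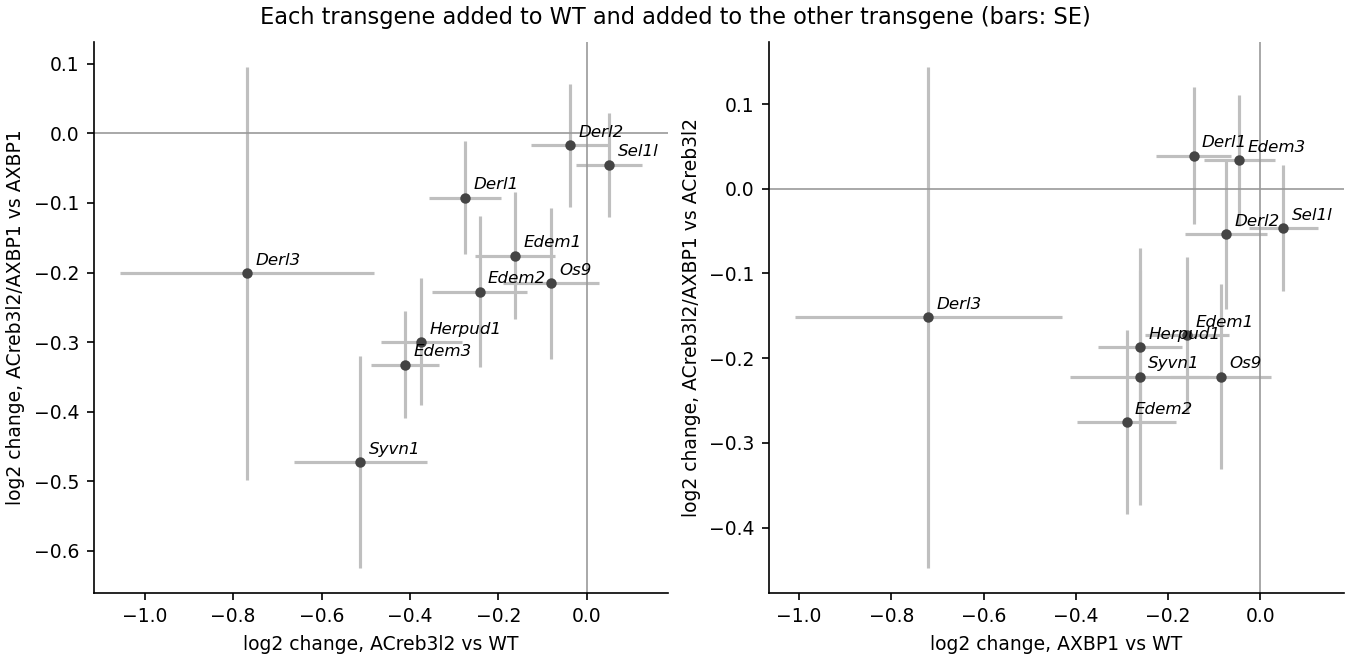
Log2 change of each member when a transgene was compared with WT (horizontal) and when it was added to the other transgene (vertical), for ACreb3l2 on the left and AXBP1 on the right, with SE bars. On the left 9 of 10 members are below 0 on both axes, and on the right 7 of 10.

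The pathway around the members was described with 59 further genes in 5 roles, all of which were tested. With both transgenes 11 of the 59 fell (6.99% of all genes fell) and 0 rose, with ACreb3l2 4 fell (2.5% of all genes) and 0 rose, and with AXBP1 0 were called with 7 at an unadjusted edgeR p under 0.05 (9.97% of all genes). Their median log2 changes were -0.16, -0.11 and -0.09 in that order, nearer to 0 than those of the 10 members. The count of 11 was 2 without WT replicate 2 and 1 without ACreb3l2/AXBP1 replicate 2, and the count of 4 was 2 without WT replicate 2, from 0 to 2 without 1 library of ACreb3l2 or AXBP1, and 7 without WT replicate 1.

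Among 15 membrane partners of the ligase complex, 4 fell in ACreb3l2/AXBP1. Selenos, a selenoprotein that ties the valosin-containing ATPase to the derlins, fell by 0.65 on the log2 scale with both transgenes (SE 0.0802, edgeR adjusted p = 0.00244), and its change with ACreb3l2 alone was -0.56 (SE 0.0801, edgeR adjusted p = 0.00543). Its call in ACreb3l2/AXBP1 was kept in 18 of 18 alternatives. Fam8a1, an accessory factor of HRD1, changed by -0.34 in ACreb3l2/AXBP1 (edgeR adjusted p = 0.0497) and -0.52 in ACreb3l2 (edgeR adjusted p = 0.0187) on the log2 scale. Hm13, the signal peptide peptidase, fell by 0.66 on the log2 scale in ACreb3l2/AXBP1 (SE 0.144, edgeR adjusted p = 0.0239), and Selenok, another partner of the derlins, by 0.43 (SE 0.0813, edgeR adjusted p = 0.0136). The call of Hm13 was kept in 14 of 18 alternatives, and without WT replicate 2 its change was -0.43 and was not called.

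Of 8 genes for recognition and trimming in the ER lumen, 2 fell in ACreb3l2/AXBP1. They were Dnajb9, the co-chaperone ERdj4 (-0.54 on the log2 scale, SE 0.0859, edgeR adjusted p = 0.00676), and Txndc11, a thioredoxin-like partner of EDEM proteins (-0.59, SE 0.103, edgeR adjusted p = 0.0101). Erlec1, a lectin related to OS9, fell in ACreb3l2 (log2 change -0.49, SE 0.109, edgeR adjusted p = 0.0423). Of 5 ubiquitin-conjugating enzymes, Ube2j1 and Ube2g2, both of which serve HRD1, fell in ACreb3l2/AXBP1 with log2 changes of -0.44 and -0.56 (edgeR adjusted p = 0.0162 and 0.0126). Of 12 other ubiquitin ligases, 1 fell, the cytosolic ligase Stub1 (log2 change -0.40, edgeR adjusted p = 0.0349).

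Among 19 genes for extraction and delivery to the proteasome, the shuttle factor Ubqln4 fell in ACreb3l2/AXBP1 (log2 change -0.55, SE 0.110, edgeR adjusted p = 0.0166). Ubl4a, of the complex that shields hydrophobic segments in the cytosol, fell in both ACreb3l2/AXBP1 (log2 change -0.49, or -0.32 and not called without WT replicate 2, edgeR adjusted p = 0.0322) and ACreb3l2 (-0.57, edgeR adjusted p = 0.0335). The counts of Dnajb9, Txndc11, Hm13, Stub1, Ube2g2 and Ubl4a are less certain, since exons of each overlap another annotated gene. The calls of Fam8a1 (4 of 18 alternatives), Stub1 (8 of 18) and Ubl4a (8 of 18) in ACreb3l2/AXBP1, and of Erlec1 (6 of 17), Ubl4a (7 of 17) and Fam8a1 (8 of 17) in ACreb3l2, were each kept in fewer than 9 alternatives. With library size only Fam8a1, Selenok, Stub1, Ube2j1 and Ubl4a were at -0.18, -0.27, -0.24, -0.28 and -0.32 in ACreb3l2/AXBP1, none of them called.

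**Figure D5:**
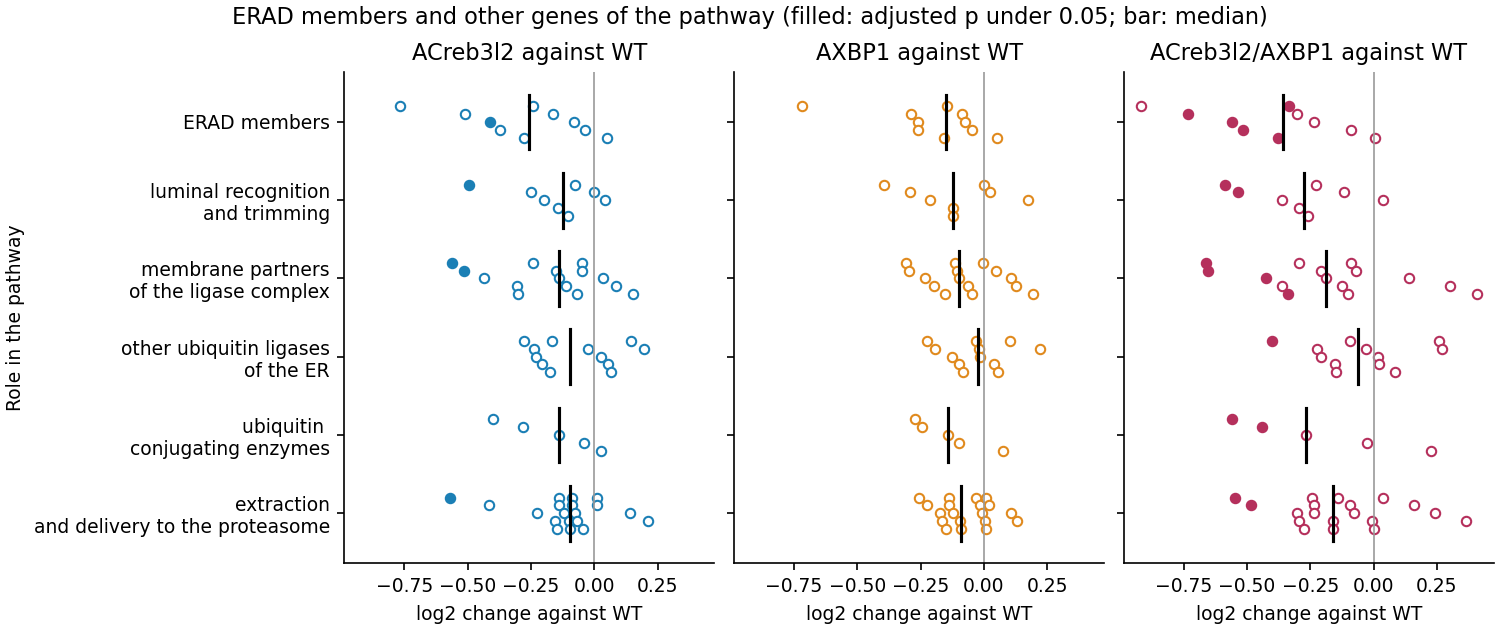
Log2 change against WT of the 10 members and of 59 other genes of the pathway in 5 roles, 1 point per gene, 1 panel per transgenic group, with the median as a bar and filled points at an adjusted p under 0.05. Every filled point is below 0, and in ACreb3l2/AXBP1 there are 5 among the members and 11 among the other genes.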

How the data were processed

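Total RNA of pooled lobes was sequenced with paired reads. According to the labels ribosomal RNA was depleted, whereas the study's methods name a stranded mRNA kit. The deposited raw counts are whole reads per Ensembl gene, which the authors trimmed with Trimmomatic, aligned to mm10 with Tophat and counted with HTSeq-count. A software list of the study names STAR as aligner. The annotation release and the strand setting are not given in the sources used here. The deposited FPKM values were made by the authors with cufflinks listed among their software, and loci of 1 gene were summed. GENCODE M21 gave coordinates and exon overlaps.

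Genes with a mean size-factor normalised count above 20 were tested. The main test was edgeR 4.0.16 (quasi-likelihood, TMM) in R 4.3.3 over all 8 libraries, with 1 mean per group, 4 residual degrees of freedom and Benjamini-Hochberg adjustment over all 15580 genes, and a gene is called at an adjusted p under 0.05. Normalised counts are counts per TMM-scaled library size at the mean library size. Alternatives used DESeq2 1.42.0 and its size factors, library size only, no filter, the 2 groups alone, a replicate block, each library left out, and limma 3.58.1 on log2(FPKM + 1) or log2(FPKM + 0.1). Members and lists were chosen with earlier results of these data known. All members are named, and other genes of the pathway were named where called.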

Additional observations from a re-analysis of the deposited data

How the results depend on the processing

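The number of members called in ACreb3l2/AXBP1 against WT (5) was 3 with library size only, 1 with only the 2 groups compared, 1 on FPKM without filter, and 1 to 6 with a library left out. In ACreb3l2 the number (1) was 0 with library size only, the 2 groups alone, or FPKM without filter, 4 without the count filter, 3 with DESeq2, and 0 to 3 with a library left out. With no filter it was 1 in AXBP1, 1 in ACreb3l2 against AXBP1 and 1 in ACreb3l2/AXBP1 against AXBP1. With DESeq2 it was 1 in each of the last 2 comparisons, and leaving out a library gave 0 to 1 in the last. With a replicate block it was 0 in ACreb3l2 and 4 in ACreb3l2/AXBP1, and the block left the other 5 comparisons at 0. The replicate numbers share no stated litter or batch, and deviations of same-numbered libraries correlated at -0.20 to 0.09 across genes. With the numbers of ACreb3l2/AXBP1 crossed, an alternative chosen after seeing the data, it was 6. The number of all genes called moved with the setting as well. In ACreb3l2 it was 473 in the main fit, 1455 of 29547 with no filter and 118 of 27520 on FPKM without filter. With no filter it was 3209 in ACreb3l2/AXBP1 (1566 in the main fit), 628 in AXBP1, 730 in ACreb3l2 against AXBP1 and 755 in ACreb3l2/AXBP1 against AXBP1. Where that number is not given, a member count cannot be read as a result about the members. The causes were not tested.

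Median changes moved with scaling. With library size only they were -0.18 with ACreb3l2, -0.090 with AXBP1 and -0.19 with both, the median of all genes in the last being 0.17. Relative to that median the members stood at -0.37, as with TMM. In AXBP1 they were -0.29 with log2(FPKM + 1), -0.30 with log2(FPKM + 0.1) and -0.29 on FPKM without filter, against medians of all genes of -0.13, -0.16 and -0.04. In ACreb3l2/AXBP1 the median was -0.42 with log2(FPKM + 0.1). With a library left out, medians ran from -0.34 to -0.18 with ACreb3l2, -0.20 to -0.085 with AXBP1 and -0.41 to -0.35 with both.

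Of 50 single-gene changes examined, 41 kept their direction in every alternative and no called one reversed. With log2(FPKM + 1), log2(FPKM + 0.1) and FPKM without filter, Sel1l was -0.015, -0.016 and -0.015 with ACreb3l2, -0.17, -0.18 and -0.17 with AXBP1, and -0.18, -0.18 and -0.18 in ACreb3l2/AXBP1, where it was -0.0014 with no filter on counts. With library size only, Derl2 was 0.038 in ACreb3l2 and 0.072 in ACreb3l2/AXBP1, and Edem3 was 0.015 in AXBP1. With a library left out, Derl2 in ACreb3l2 ran from -0.12 to 0.051, Os9 from -0.19 to 0.044, Syvn1 in AXBP1 from -0.50 to 0.025, Os9 from -0.20 to 0.037, and Sel1l in ACreb3l2/AXBP1 from -0.00046 to 0.012. The number of all genes called ran from 118 to 1455 with ACreb3l2, 0 to 628 with AXBP1 and 218 to 3209 with both, lowest on FPKM without filter in the first and without ACreb3l2/AXBP1 replicate 2 in the last, and highest with no filter on counts. A lone library left in a group was taken to vary like the other groups.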
